A study of Danio rerio with 16 samples.

Results

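The genes described here mark a stretch of the zebrafish neural plate that runs from the midbrain to the rhombomeres of the hindbrain. They were chosen by name: en1b, en2a, en2b, pax2a, wnt1, her5, gbx1, gbx2 and egr2b. The choice used no rule on their values, though earlier results of these data were known. A gene entered when its symbol matched a name in any case, or matched it without the paralog letter, and a symbol shared by several genes brought in every one of them. The 9 names gave 10 Ensembl genes of the 32520 in the deposited table, and all 10 were among the 16894 genes that passed the filter on low counts.

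The midbrain-hindbrain boundary is a signalling centre of the neural plate that forms where the domains of Otx and Gbx transcription factors meet. Its cells secrete Wnt1 and Fgf8, and Pax2 and Engrailed transcription factors keep that signalling going and pattern the midbrain and the anterior hindbrain. Behind it the hindbrain divides into segments called rhombomeres, which Egr2 (also known as Krox20) helps to specify. Most of these genes are also used outside the brain, so a whole-embryo level sums over several tissues.

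Whole zebrafish embryos of wild-type (WT) genotype received a locked nucleic acid (LNA), a modified antisense oligonucleotide, by injection at 0 hours post fertilization (hpf). Knockdown embryos had the LNA named for BHIKHARI (Bik-1 LNA), an endogenous retrovirus, and control embryos had a scrambled LNA. Both kinds were collected at 8, 11, 14 and 18 hpf, with 2 libraries of polyadenylated RNA per group, 8 groups and 16 libraries. The labels do not say whether the replicates of a group came from separate clutches or injections, and the p-values below therefore reflect only how these libraries spread, which may be technical.

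Libraries held 4399855 to 7694887 counts. The retroviral repeat itself, listed as the family BHIKHARI_LTR, was lower in both knockdown libraries than in both controls at every time, with 677 and 751 CPM (counts scaled to library size) in knockdown embryos against 2810 and 2820 CPM in controls at 8 hpf. The last of the 4 times had 36.2 and 34.8 CPM in knockdown embryos against 98.9 and 104 CPM in controls. Markers of other embryonic tissues, from muscle and blood to neural crest and hatching gland, were detected for 31 of 31 genes. In such bulk RNA, fewer cells of a type and less RNA per cell cannot be told apart. The leading principal component of all other tested genes, repeat families left out, held 66.2% of the variance and ran with time. On it knockdown libraries scored below controls of the same time at 14 hpf (17.9 and 31.7 against 40.1 and 48.1) and at 18 hpf (113 and 108.8 against 119.3 and 121.1). The groups overlapped at 8 hpf, where scores were -124.1 and -139.4 in knockdown embryos against -117 and -136.2 in controls. They also overlapped at 11 hpf (-8.2 and -44.3 against -4.1 and -26.6). At 8 and 11 hpf each knockdown library nevertheless scored below the control with the same replicate number.

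**Figure D1:**
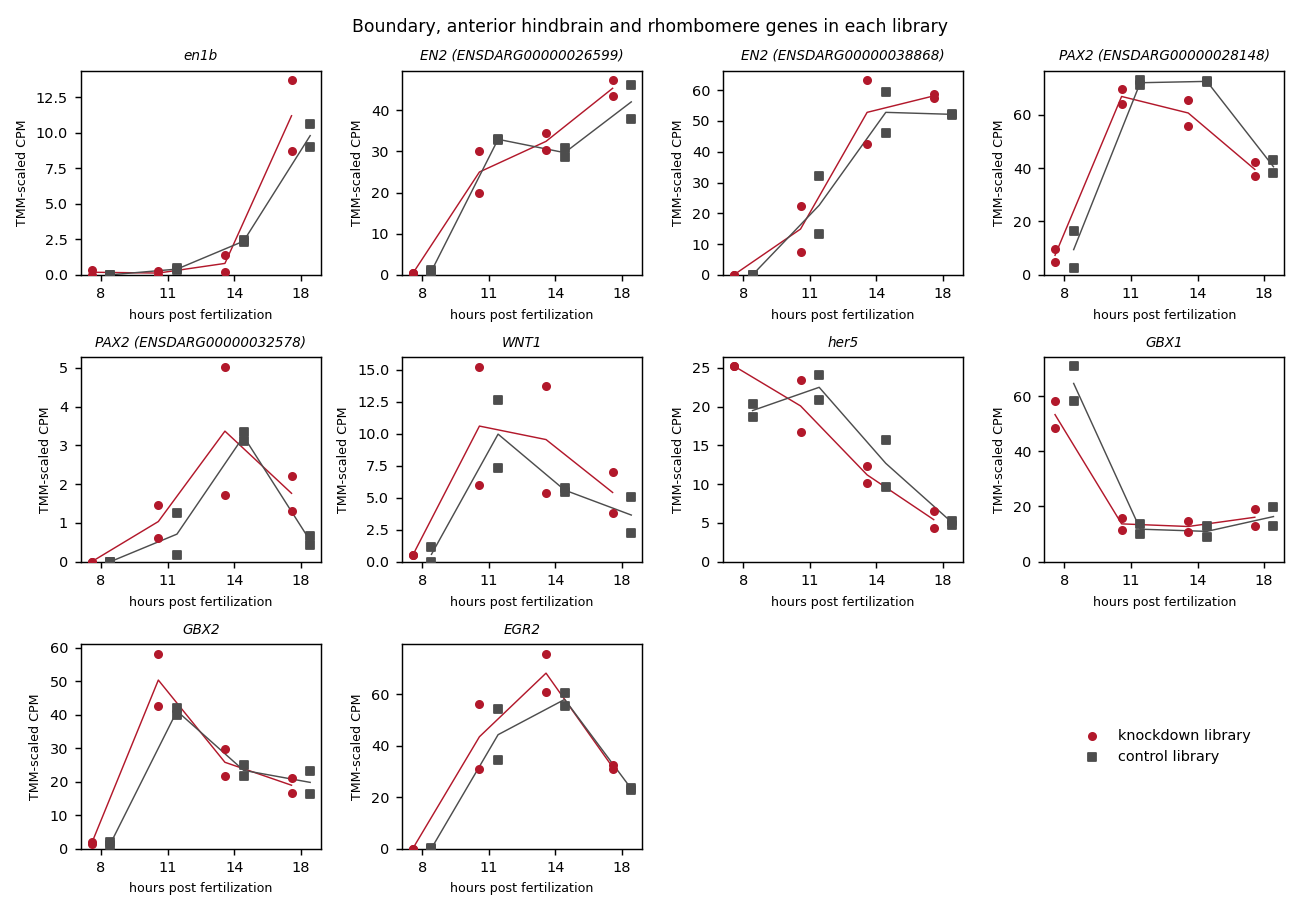
TMM-scaled CPM (vertical, linear) of each of the 10 genes against time in hpf (horizontal), 1 panel per gene, with 2 knockdown libraries (red circles, left) and 2 control libraries (grey squares, right) per time and lines through the group means. Most genes are near 0 at 8 hpf and high from 11 hpf in both groups, GBX1 runs the other way, and en1b appears only at 18 hpf at more than 3 CPM.

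The first question was when these genes come on in control embryos, since a knockdown effect can be seen only where there is a transcript to measure. Between 8 and 11 hpf, the end of gastrulation and the start of segmentation, 7 of the 10 genes rose, 1 fell and 2 did not pass the test. Over all genes tested the shares were 19.2% higher and 12.1% lower, 31.3% together. A gene is called here when edgeR's quasi-likelihood F-test gives it an adjusted p under 0.05 (Benjamini-Hochberg, all tested features), and levels are CPM scaled by TMM, a normalization of library composition.

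EGR2 is the ortholog-style name that stands here for egr2b, the transcription factor of rhombomeres 3 and 5. In controls it had 549 counts at 11 hpf against 1 count at 8 hpf, a ratio of 528 with a 95% counting interval of 94.3 to 20900 (edgeR adjusted p = 1.8e-07). In CPM its control libraries had 54.2 and 34.2 at 11 hpf against 0.164 and 0 at 8 hpf. This gene of the segmented hindbrain was thus at or near 0 in the late gastrula and well measured 3 hours later.

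The boundary genes followed at the same step. The EN2 gene ENSDARG00000026599 had 32.8 and 33.1 CPM at 11 hpf against 1.15 and 0.68 CPM at 8 hpf, a 35.2-fold rise (log2 5.14, SE 0.31, edgeR adjusted p = 2.7e-08). A second gene with the symbol EN2, ENSDARG00000038868, had 280 counts at 11 hpf and 0 at 8 hpf (edgeR adjusted p = 0.0013). That is 89.7-fold higher against a floor of 3 counts over the 2 libraries. The symbol table does not say which of the 2 is en2a and which en2b, both Engrailed homeobox genes of the boundary region.

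WNT1, the secreted ligand of the boundary and of the dorsal midline, had 7.34 and 12.6 CPM at 11 hpf against 1.15 and 0 CPM at 8 hpf (log2 4.05, SE 0.84, edgeR adjusted p = 0.0024). The symbol PAX2 was also shared by 2 genes, and pax2a, the gene mutated in no isthmus fish, is among them. The PAX2 gene ENSDARG00000028148 had 71 and 73 CPM at 11 hpf against 16.5 and 2.38 CPM at 8 hpf (log2 2.92, SE 0.53, edgeR adjusted p = 0.0024). The PAX2 gene ENSDARG00000032578 was far scarcer, with 9 counts at 11 hpf and none at 8 hpf, 2.88-fold higher against the floor of 3 counts (edgeR adjusted p = 0.045). That last call is fragile: it was lost when any 1 of 9 libraries was left out, with adjusted p up to 0.33, whereas the other 7 calls of this step held without each of the 16 libraries. Sizes moved more than calls: without control 8 hpf replicate 1 or 2 the log2 rise of PAX2 ENSDARG00000028148 was 4.89 or 2.11, and that of WNT1 8.93 or 3.09, where the 8.93 is set against a single control with 0 counts and is no bound.

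The 2 Gbx genes went opposite ways. GBX2, a homeobox factor of the anterior hindbrain, had 42.1 and 40 CPM at 11 hpf against 0.982 and 1.87 CPM at 8 hpf (log2 4.83, SE 0.34, edgeR adjusted p = 7.6e-08). GBX1, the early Gbx factor of the zebrafish hindbrain plate, had 9.96 and 13.6 CPM at 11 hpf against 58.3 and 70.9 CPM at 8 hpf (log2 -2.45, SE 0.28, edgeR adjusted p = 1e-05). It was the gene that fell at this step, and across the 16 libraries the log2 CPM of the 2 genes had a Pearson r of -0.91, a description only, since libraries of a time share their stage.

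The bHLH repressor gene her5, which keeps the boundary zone of the neural plate free of neurons and is also used in early endoderm, was, like GBX1, already well measured at 8 hpf. It had 20.9 and 24.1 CPM at 11 hpf against 20.3 and 18.7 CPM at 8 hpf, a log2 difference of 0.21 (SE 0.26) that did not pass (edgeR adjusted p = 0.58). The Engrailed gene en1b had 5 counts at 11 hpf and 0 at 8 hpf in controls. That is 1.6-fold higher against the floor of 3 counts, and it did not pass either (edgeR adjusted p = 0.091).

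**Figure D2:**
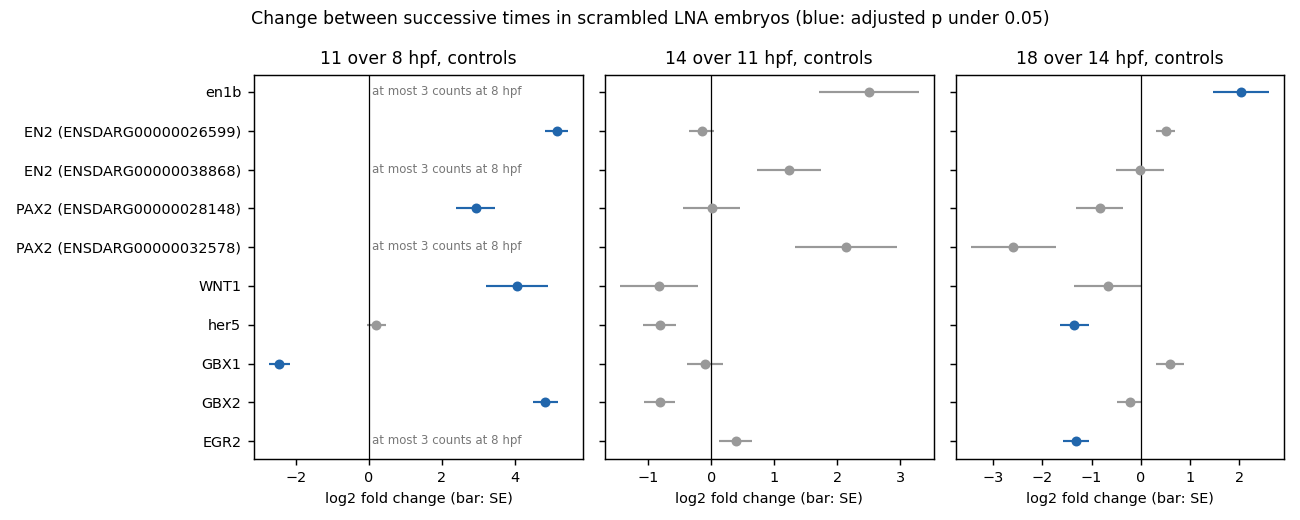
Log2 fold change of each of the 10 genes between successive times in control embryos (horizontal, points; bars are SE), with the later time over the earlier one in 3 panels and blue for an edgeR adjusted p under 0.05. The 11 over 8 hpf panel holds most of the large changes, from -2.45 for GBX1 to 5.14 for EN2 ENSDARG00000026599, and 4 genes without a point there had 3 counts or fewer at 8 hpf.

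From 11 to 14 hpf no gene of the set passed the test: edgeR called 0 of the 10 genes, against 2.74% of all genes, and DESeq2 called 0. At an unadjusted p under 0.05 there were 5, against 15.1% of all genes. These were en1b with a log2 difference of 2.50, PAX2 ENSDARG00000032578 with 2.14, EN2 ENSDARG00000038868 with 1.23, and her5 and GBX2 with -0.82 each, and their edgeR adjusted p ran from 0.089 for GBX2 to 0.31. The absence of calls depended on the settings. With no filter beyond 1 count edgeR called EN2 ENSDARG00000038868 (adjusted p = 5.9e-06), GBX2 (adjusted p = 0.016) and en1b (adjusted p = 0.017). With only the 8 control libraries it called en1b (adjusted p = 0.043).

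From 14 to 18 hpf, 1 gene rose and 2 fell of the 10, against 8.05% higher, 3.93% lower and 12% called of all genes. The late riser was en1b, which had 9.01 and 10.6 CPM at 18 hpf against 2.46 and 2.28 CPM at 14 hpf in controls (log2 2.04, SE 0.57, edgeR adjusted p = 0.027). The 2 that fell were EGR2 and her5. EGR2 had 23.5 and 22.9 CPM at 18 hpf against 60.4 and 55.4 CPM at 14 hpf (log2 -1.32, SE 0.27, edgeR adjusted p = 0.006), so that it stood at 40.1% of its 14 hpf level. The level of her5 was 5.28 and 4.74 CPM at 18 hpf against 9.68 and 15.7 CPM at 14 hpf (log2 -1.35, SE 0.30, edgeR adjusted p = 0.0074).

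These later calls depend on single libraries. The call of en1b was lost without any 1 of the 4 controls involved (adjusted p up to 0.17). The EGR2 call needed replicate 1 of the 14 hpf controls and replicate 2 of the 18 hpf controls (adjusted p up to 0.076 if either was omitted). The her5 call needed replicate 2 of both of those control groups (up to 0.13). In all those cases the direction was kept.

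By the control means, EGR2 was highest at 14 hpf, next at 11 hpf and then at 18 hpf, and its 14 and 11 hpf levels did not differ past the test (edgeR adjusted p = 0.55). The EN2 gene ENSDARG00000026599 was highest at 18 hpf, with 46.2 and 37.9 CPM, a difference from 14 hpf that did not pass (log2 0.50, SE 0.20, edgeR adjusted p = 0.13).

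Close relatives with symbols of their own were counted separately, and both described here had their highest levels at 18 hpf. EN1 was at 5.96 and 8.15 CPM in knockdown embryos against 6.38 and 6.69 CPM in controls at 18 hpf, and under 1 CPM in every earlier library. The other Egr2 gene, egr2a, had 9.31 and 6.11 CPM in knockdown embryos against 9.89 and 6.55 CPM in controls at 18 hpf, and the groups overlapped for both genes. At 14 hpf egr2a had 1.72 and 1.21 CPM in knockdown embryos against 2.95 and 4.11 CPM in controls, without overlap.

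The study's main question was what the retroviral knockdown does. For these 10 genes no difference passed the test: edgeR called 0 of 10 at 8, 11, 14 or 18 hpf and 0 on the average over the 4 times. Over all genes it called 0.349% at 8 hpf, 0% at 11 hpf, 0% at 14 hpf, 0.00592% at 18 hpf and 1.66% on average. At an unadjusted p under 0.05 this fit again had 0 of 10 in each comparison, though some alternatives had single genes under it, against 9.33%, 4.71%, 5.67% and 4.53% of all genes at 8, 11, 14 and 18 hpf and 15.7% on average. DESeq2 called 0 of 10 in each comparison, as did every other alternative run, including the omission of each library in turn. The test of a change of the knockdown effect between times also called 0 of 10, against 0% of all genes, and 0 of 10 at an unadjusted p under 0.05, against 2.71%.

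**Figure D3:**
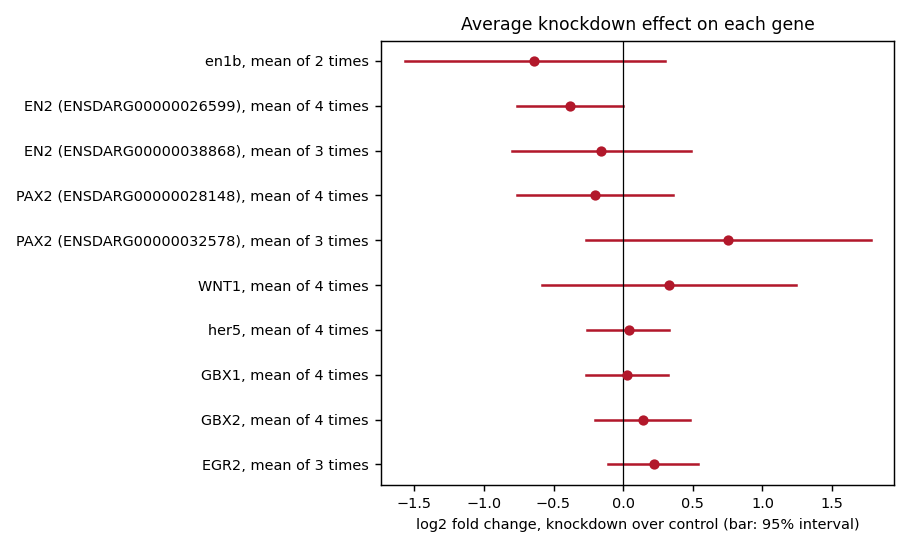
Average log2 fold change of knockdown over control (horizontal; bars are 95% intervals from the edgeR fit) for each of the 10 genes, over the times at which both groups had more than 3 counts. The intervals of 9 genes include 0, and that of EN2 ENSDARG00000026599 ends just below it, at 0.00 after rounding. The intervals are approximate: that gene's edgeR unadjusted p was 0.051, so its interval is slightly too narrow.

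A p that misses the threshold does not show that levels were alike, and the intervals say roughly how large a difference remains possible. These intervals are approximate and can be slightly narrower than the test behind the p. They are narrowest for her5, GBX1 and EGR2. The average level of her5 in knockdown embryos was 103% of control (95% interval 83.6% to 126%), that of GBX1 was 102% (83% to 125%) and that of GBX2 was 110% (86.9% to 139%). Over 11, 14 and 18 hpf, EGR2 was at 116% (92.7% to 146%). For WNT1, EN2 ENSDARG00000038868, PAX2 ENSDARG00000032578 and en1b the spread between libraries was wide, with log2 intervals of -0.58 to 1.24, -0.80 to 0.49, -0.27 to 1.78 and -1.57 to 0.30. An exact permutation test of log2 CPM with labels permuted within each time (all arrangements, two-sided, smallest possible p 0.0015 without ties) gave 0 of 10 under 0.05, and the lowest p was 0.13, for EN2 ENSDARG00000026599. For EN2 ENSDARG00000038868 and PAX2 ENSDARG00000032578, with 0 counts in every 8 hpf library, the smallest possible p was 0.0093. EGR2 and en1b had ties at 0 counts at 8 hpf, so their smallest possible p was also above 0.0015.

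WNT1 showed how far replicates could differ within a group. It had 6 and 15.2 CPM in knockdown embryos against 7.34 and 12.6 CPM in controls at 11 hpf, 5.39 and 13.7 CPM against 5.41 and 5.78 CPM at 14 hpf, and 3.78 and 7.04 CPM against 5.06 and 2.23 CPM at 18 hpf. The groups overlapped at each of those times, and the log2 differences were 0.10 (SE 0.59), 0.78 (SE 0.63) and 0.61 (SE 0.68).

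EN2 ENSDARG00000026599 was the gene whose average lay farthest from 0 relative to its error. At 8 hpf it had 0.362 and 0.325 CPM in knockdown embryos against 1.15 and 0.68 CPM in controls (log2 -1.37, SE 0.63, edgeR adjusted p = 0.61). At 11 hpf it had 30.2 and 19.8 CPM in knockdown embryos against 32.8 and 33.1 CPM in controls (log2 -0.41, SE 0.20, edgeR adjusted p = 1). Both knockdown libraries lay below both controls at these 2 times, and the groups overlapped at 14 hpf, with 30.4 and 34.5 CPM against 30.8 and 28.6 CPM, and at 18 hpf, with 47.3 and 43.4 CPM against 46.2 and 37.9 CPM. The average, which weighs the 4 times equally, was 76.6% of control (95% interval 58.9% to 99.8%, edgeR unadjusted p = 0.051, adjusted p = 0.33). That interval ends short of equality while the unadjusted p is above 0.05, so it is slightly too narrow. The average takes in the 8 hpf difference, which rests on 4 counts in knockdown embryos against 11 in controls. At 11, 14 and 18 hpf, with at least 340 counts in each group, the log2 differences were -0.41, 0.13 and 0.11. The test of a change between times gave an unadjusted p of 0.066 and an edgeR adjusted p of 1.

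The other EN2 gene, ENSDARG00000038868, had 22.4 and 7.34 CPM in knockdown embryos against 32 and 13.2 CPM in controls at 11 hpf. Replicate 1 was high and replicate 2 low in both groups, the groups overlapped, and the log2 difference was -0.63 (SE 0.53). It had 42.4 and 63.2 CPM against 46.1 and 59.5 CPM at 14 hpf, and 58.7 and 57.6 CPM against 52.1 and 52.2 CPM at 18 hpf. The 18 hpf values did not overlap, with a log2 difference of 0.16 (SE 0.49). That SE draws on the gene's spread in all groups, the 11 hpf replicates included.

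For en1b the knockdown libraries were low at 14 hpf, with 0.215 and 1.39 CPM against 2.46 and 2.28 CPM in controls. The groups did not overlap there, and the log2 difference was -1.46 (SE 0.72, edgeR adjusted p = 0.88). It was -0.77 without knockdown replicate 1 of that time and -3.34 without replicate 2. By 18 hpf the groups overlapped, with 13.7 and 8.71 CPM in knockdown embryos against 9.01 and 10.6 CPM in controls (log2 0.19, SE 0.51). At 11 hpf there were 2 counts against 5, a ratio of 0.348 with a 95% counting interval of 0.0331 to 2.13. In controls this gene rose between 14 and 18 hpf, and at 14 hpf the knockdown libraries also scored lower than controls on the time-ordered principal component. The part of that shift in the en1b values was not tested.

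At 8 hpf PAX2 ENSDARG00000028148 had 9.76 and 4.87 CPM in knockdown embryos against 16.5 and 2.38 CPM in controls, where the 2 controls lay on either side of both knockdown libraries. The log2 difference of -0.39 (SE 0.61) there depended on control replicate 1: without it the difference was 1.58, with an edgeR adjusted p of 0.19. At 11 hpf it had 64.1 and 69.6 CPM against 71 and 73 CPM, and at 14 hpf 55.8 and 65.5 CPM against 72.4 and 72.6 CPM, so that knockdown libraries were the lower ones at both times (log2 -0.11, SE 0.45, and -0.26, SE 0.46). Each SE draws on the gene's spread in all groups, the 8 hpf controls included. With only the 4 libraries of 14 hpf the difference was -0.26 (SE 0.12, edgeR unadjusted p = 0.043, adjusted p = 0.39). At 18 hpf the groups overlapped, with 36.9 and 42.1 CPM against 38 and 43 CPM. The scarce PAX2 gene ENSDARG00000032578 had 1.31 and 2.22 CPM in knockdown embryos against 0.66 and 0.418 CPM in controls at 18 hpf, without overlap (log2 1.71, SE 0.91, edgeR adjusted p = 0.99). Its groups overlapped at 11 hpf, with 1.46 and 0.612 CPM against 0.163 and 1.26 CPM, and at 14 hpf, with 1.72 and 5.02 CPM against 3.12 and 3.35 CPM.

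The rhombomere gene lay on the high side late. EGR2 had 60.7 and 75.5 CPM in knockdown embryos against 60.4 and 55.4 CPM in controls at 14 hpf, and 32.4 and 30.8 CPM against 23.5 and 22.9 CPM at 18 hpf. Both knockdown libraries were above both controls at both times, an arrangement that 7.6% of all genes also had. The log2 difference was 0.24 (SE 0.26, edgeR adjusted p = 0.93) at 14 hpf and 0.45 (SE 0.28, edgeR adjusted p = 0.99) at 18 hpf.

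At 11 hpf EGR2 had 56.1 and 30.7 CPM in knockdown embryos against 54.2 and 34.2 CPM in controls, with overlap, and at 8 hpf it had 0 counts against 1. The gene fell between 14 and 18 hpf in controls, and the knockdown libraries of 14 and 18 hpf scored lower than controls on the time-ordered component. The other gene called lower over that step, her5, had overlapping groups at both times. Its log2 knockdown differences were -0.18 (SE 0.28) at 14 hpf and 0.11 (SE 0.32) at 18 hpf. Whether the shift on the component has a part in the late values of either gene was not tested.

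The Gbx genes and her5 differed little between the groups, and in no single direction. GBX1 had 48.5 and 58.1 CPM in knockdown embryos against 58.3 and 70.9 CPM in controls at 8 hpf, just short of touching (log2 -0.28, SE 0.25). Its groups overlapped later, with 11.5 and 15.9 CPM in knockdown embryos against 9.96 and 13.6 CPM in controls at 11 hpf, 14.6 and 10.9 against 8.86 and 13.1 CPM at 14 hpf, and 13.1 and 19.1 against 12.8 and 19.9 CPM at 18 hpf. GBX2 had 42.5 and 58.1 CPM against 42.1 and 40 CPM at 11 hpf, without overlap (log2 0.30, SE 0.23). Elsewhere its groups overlapped or met, with 29.7 and 21.8 CPM in knockdown embryos against 24.9 and 21.8 CPM in controls at 14 hpf and 16.7 and 21.1 against 16.3 and 23.2 CPM at 18 hpf. The Gbx genes thus kept their opposite time courses in both groups. The values of her5 were 25.3 and 25.2 CPM in knockdown embryos against 20.3 and 18.7 CPM in controls at 8 hpf, the time at which its groups did not overlap (log2 0.37, SE 0.26, edgeR adjusted p = 0.74). By 18 hpf her5 was at 4.36 and 6.49 CPM in knockdown embryos against 5.28 and 4.74 CPM in controls.

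Counted by separation of the libraries, both knockdown libraries lay below both controls for 2 of the 10 genes at 8 hpf (17.8% of all genes), 3 at 11 hpf (13.8%), 2 at 14 hpf (21.5%) and 0 at 18 hpf (19.9%). They lay above both controls for 1 gene at 8 hpf (16.7%), 1 at 11 hpf (13.4%), 1 at 14 hpf (21.9%) and 3 at 18 hpf (20.6%). These numbers are small with 2 libraries a group. No gene of the 10 was on the same side at more than 2 of the 4 times, but the share of all genes with such a repeat is given for EGR2 only. Repeats at 2 times are therefore a description only. The numbers also count genes at the floor: en1b, among those below at 11 hpf, had 0 and 2 counts against 3 and 2. At 8 hpf EN2 ENSDARG00000038868 and PAX2 ENSDARG00000032578 had 0 counts in every library and could not separate.

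Wider lists of genes of the same territory, which hold none of the 10, were tested in the same fit. Of 34 boundary genes tested, 0 passed on the average over the 4 times, and their median log2 difference was -0.01, against 0.013 over all genes. At an unadjusted p under 0.05 there were 2 higher and 3 lower, and 15.7% of all genes had such a p in either direction. The lowest p-values belonged to 2 feedback inhibitors of FGF signalling, DUSP6 with a log2 difference of 0.16 (SE 0.05) and IL17RD with -0.23 (SE 0.07), each with an edgeR adjusted p of 0.13.

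Of 47 hindbrain and rhombomere genes tested, 2 rose and 0 fell on average, where 1.66% of all genes were called, and the median was -0.03. The Iroquois homeobox gene IRX1 ENSDARG00000056594 had 147 and 141 CPM in knockdown embryos against 109 and 112 CPM in controls at 11 hpf and 136 and 132 CPM against 97.6 and 96.3 CPM at 14 hpf. Its average log2 change was 0.31 (SE 0.05, edgeR adjusted p = 0.0074). A second gene of the list with the symbol IRX1, ENSDARG00000101831, went the other way without passing (log2 -0.70, SE 0.20, edgeR adjusted p = 0.1). EFNA3, which encodes an ephrin ligand, had 8.5 and 4.39 CPM in knockdown embryos against 2.13 and 2.21 CPM in controls at 8 hpf and 6.49 and 9.18 CPM against 2.28 and 3.47 CPM at 11 hpf. Its average log2 change was 1.16 (SE 0.22, edgeR adjusted p = 0.012), though at 18 hpf its groups overlapped, with 4.8 and 9.45 CPM against 5.72 and 3.63 CPM. Over 11, 14 and 18 hpf alone neither of the 2 called genes passed. The log2 differences were 0.30 for IRX1 ENSDARG00000056594 (edgeR adjusted p = 0.051) and 1.02 for EFNA3 (edgeR adjusted p = 0.099). EFNA3 also did not pass over the 4 times when replicate 2 of the 18 hpf controls was omitted.

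By time, the median of the hindbrain list was -0.15 (8 hpf), -0.07 (11 hpf), 0.08 (14 hpf) and 0.14 (18 hpf), and no single time had a called gene. Counted at an unadjusted p under 0.05, the list had 8 higher and 0 lower of 47 at 14 hpf, where all genes had 2.24% higher and 3.43% lower. By that count the list had 4 higher and 6 lower at 8 hpf (9.33% of all genes in either direction), 4 higher and 2 lower at 11 hpf (4.71%), and 3 higher with 0 lower at 18 hpf (4.53%). The median of the general neural list also went up with time, with -0.13, -0.10, -0.04 and -0.01 at the 4 times. In the test of a change between times 0 of the 47 hindbrain genes passed.

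**Figure D4:**
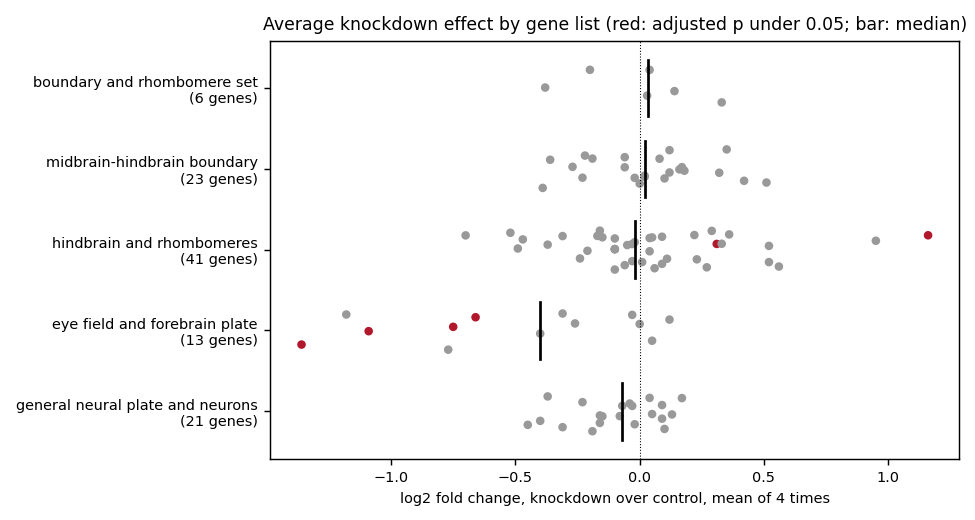
Average log2 fold change of knockdown over control over the 4 times (horizontal) for single genes (points; red for an edgeR adjusted p under 0.05) by gene list, with the list's median as a bar; genes with 3 counts or fewer in any group are not drawn. The boundary and rhombomere set has 6 genes drawn, between -0.38 and 0.33, and the eye field and forebrain list reaches -1.36.

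The eye field and forebrain list, the neighbouring territory in front, had lower values on the same scale. Of its 26 genes tested, 0 rose and 4 fell on average, where 1.66% of all genes were called: rx3, SIX3 ENSDARG00000054879, FEZF2 and ZIC1, with log2 changes of -1.36, -1.09, -0.75 and -0.66. At 8 hpf, where 0.349% of all genes were called, 0 rose and 4 fell: rx3 (log2 -2.28), FEZF2 (-1.72), six7 (-1.43) and PAX6 ENSDARG00000045936 (-1.30). The median of the averages was -0.76, or -0.40 over the 13 genes with more than 3 counts in every group. The general neural list had 0 called of 29, with a median of -0.15, or -0.07 over the 21 genes with more than 3 counts in every group. Its lowest p-values were those of sox19b (log2 0.17, SE 0.06) and HES6 ENSDARG00000007097 (log2 -0.37, SE 0.14), each with an edgeR adjusted p of 0.2. The list's summed level at 8 hpf was 2479 and 2823 CPM in knockdown embryos against 2764 and 2942 CPM in controls. Among the markers of other tissues, krt18a.1, a keratin of surface epithelium, rose (log2 0.40, edgeR adjusted p = 0.0013; 0.84 at 18 hpf) and TP63, a factor of the epidermis, fell (log2 -0.37, edgeR adjusted p = 0.04).

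The genes were also set against the forebrain list within each library, as the log2 ratio of a gene to the list's summed CPM, for the 9 genes with at least 3 usable times. The list was chosen with its fall known, so these ratios are a description with no test. The summed list fell by 0.31 on the log2 scale over the 4 times and by 0.29 over 11, 14 and 18 hpf. A gene that stays level gains that much in the ratio. The 3 later times were used for EGR2, EN2 ENSDARG00000038868 and PAX2 ENSDARG00000032578, and all 4 for the others. The ratio was higher in knockdown embryos by 0.44 for GBX2, whose own level did not differ past the test (exact permutation p = 0.37, two-sided, labels permuted within times). GBX1, her5 and EGR2 gave 0.35, 0.34 and 0.50.

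On average the 2 EN2 genes were closest to the list itself, with ratio differences of 0.05 for ENSDARG00000026599 and 0.12 for ENSDARG00000038868. The 0.05 averages opposite signs: the ratio was higher in knockdown embryos at 2 of the 4 times only. The remaining 3, PAX2 ENSDARG00000028148, WNT1 and PAX2 ENSDARG00000032578, gave 0.23, 0.67 and 0.86.

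Across the 16 libraries, the genes fell into a few time courses. The log2 CPM of the 2 EN2 genes had a Pearson r of 0.97, while her5 and en1b had -0.89. Among named genes outside the set, the closest to EGR2 was EPHA4 ENSDARG00000054454, an Eph receptor, with r = 0.992, followed by WNT11 (0.990) and he1.2 (0.989). The 3 closest to EN2 ENSDARG00000026599 were DMRTA2, MLLT3 and NTN1 (0.994 to 0.993), and to EN2 ENSDARG00000038868 they were col7a1l, lamb2l and ZBTB16 (0.997 to 0.996).

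For PAX2 ENSDARG00000028148 the 3 closest were CDH11, HOXC6 and loxl5b (0.979 to 0.976), and for PAX2 ENSDARG00000032578 EFNA1, CHSY3 and ptpn11b (0.956 to 0.912). WNT1 was closest to triob, PGP and IRX3 ENSDARG00000031138 (0.966 to 0.953). GBX1 was closest to TRA2A, SLC2A12 and CYP27C1 (0.969 to 0.962), and GBX2 to tom1, NIBAN1 and HBS1L (0.959 to 0.955). The closest to her5 were alcamb, EFNB2 ENSDARG00000074050 and ZDHHC18 (0.959 to 0.957), and to en1b CA6, MAB21L1 and mtcl3a (0.979 to 0.974). All these correlations describe libraries that share a stage, and many genes follow time in the same way.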

How the data were processed

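The authors deposited raw read counts per Ensembl gene and repeat family for each library. Per the submitters' processing notes, STAR and GRCz11 were used. How reads were counted, strand included, is not given in the sources used here, so reads shared by paralogs such as the 2 EN2 or 2 PAX2 genes may have been split unevenly. Symbols were looked up by Ensembl identifier. The genes and lists were chosen with earlier results of these data known. Of 163 list entries, 99 matched by symbol, 49 after dropping the paralog letter, 2 by RefSeq synonym and 13 not at all.

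All 16 libraries were fitted together with edgeR 4.0.16 in R 4.3.3 (TMM scaling, filterByExpr on the 8 groups, robust quasi-likelihood F-test, 8 residual degrees of freedom, biological coefficient of variation 0.177). Adjusted p-values are Benjamini-Hochberg over 17756 features, 16894 genes and 862 families. Groups with 3 counts or fewer have no fitted fold change, and their intervals cover counting error only. Folds against the floor of 3 counts carry no error on the observed count and are no bounds. Exact tests used log2 CPM with a prior count of 2. On simulated data the average comparison recovered 46.3% of 1.5-fold and 86.6% of 2-fold changes, and the 8 hpf comparison 5.97% and 34.3%. The changed genes were drawn from those above a minimum mean level, and each was changed by the same fold at every time. These rates pool the changed genes and were not split by expression level. The rates do not give the power for scarce genes of the set, where recovery may be lower. Nor do they give the power of the average for an effect at a single time. At 8 hpf en1b, EGR2, EN2 ENSDARG00000038868 and PAX2 ENSDARG00000032578 had 3 counts or fewer in each group. In each group the 2 replicates differed beyond sampling noise (chi-square per degree of freedom 3.89 to 31.4). Alternatives were median-of-ratios size factors, no filter beyond 1 count, genes only, a replicate block, fewer libraries or times, DESeq2 1.42.0 and leaving out each library.

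All 10 genes were tested in every comparison. The averages over 11, 14 and 18 hpf or over 14 and 18 hpf for genes with 3 counts or fewer in a group, and the ratio to the forebrain list, were chosen after seeing the data. From each list every called gene is named, or with none called the 2 of lowest p on average. A gene of the listed set and a gene of the hindbrain list are not reported here. For likeness, the 3 named genes of highest Pearson r are given.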

Additional observations from a re-analysis of the deposited data

How the results depend on the processing

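Calls among the 10 genes for the knockdown stayed at 0 under every alternative run, which were as listed under processing, and the call count of the 11 over 8 hpf step stayed at 7 or 8 without each library. At 8 hpf several genes had 3 counts or fewer and so no fitted difference. The libraries of that time held 6027618 to 6636157 counts, and a part of depth in those low counts was not tested.

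Counts of called genes over the whole table moved with the settings. With no filter beyond 1 count they were 314 at 8 hpf, 92 at 11 hpf, 144 at 14 hpf, 121 at 18 hpf, 1038 on average, 77 for a change between times and 1209 for 14 over 11 hpf in controls, where 3 of the 10 genes passed, against 59, 0, 0, 1, 281, 0 and 463 in the fit reported. For 18 over 14 hpf in controls that setting called 5 of the 10 genes, against 3, with both PAX2 genes among the 5. DESeq2 called 110, 6, 10, 5 and 427, and 3 for a change between times. Using only the 4 libraries of a time gave 13 at 8 hpf, 74 at 14 hpf and 144 at 18 hpf. Using only the 8 control libraries gave 737 for 14 over 11 hpf, with 1 of the 10 genes. The average over 11, 14 and 18 hpf only called 55. The cause of these shifts was not tested.

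At an unadjusted p under 0.05 the alternatives that keep all replicates had 11 results of single genes, and those without 1 library 21, with adjusted p of at least 0.09 and 0.087. With no filter beyond 1 count these were EN2 ENSDARG00000038868 at 11 hpf (edgeR adjusted p = 0.56) and en1b at 14 hpf (edgeR adjusted p = 0.66). With only the 4 libraries of a time they were PAX2 ENSDARG00000028148 at 14 hpf (edgeR adjusted p = 0.39) and EGR2 at 18 hpf (edgeR adjusted p = 0.33). EN2 ENSDARG00000026599 on average was among them with median-of-ratios factors and with genes only (edgeR adjusted p = 0.31 in both).

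Replicate numbers were not treated as pairs, since the labels give no shared clutch or day. Deviations of same-numbered libraries correlated by 0.32, 0.50, 0.15 and 0.07 at 8, 11, 14 and 18 hpf. All of these are above 0, but whether the numbers are pairs was not tested. A fit with the replicate block within each time called 603, 117, 305 and 115 genes at the 4 times and 93 for a change between times. On average it called 2034, against 281 without the block. Of the 10 genes it called 0. Those under an unadjusted 0.05 were EN2 ENSDARG00000038868 (log2 -0.65, SE 0.18, edgeR adjusted p = 0.09) and EN2 ENSDARG00000026599 (edgeR adjusted p = 0.31) at 11 hpf, en1b at 14 hpf (edgeR adjusted p = 0.3), and EGR2 at 18 hpf (edgeR adjusted p = 0.24) and over 11, 14 and 18 hpf (edgeR adjusted p = 0.14).

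Leaving out 1 library at a time gave 16 to 119 genes at 8 hpf, 0 to 70 at 11 hpf, 0 to 11 at 14 hpf, 0 to 5 at 18 hpf and 137 to 982 on average, the highest of these without knockdown 11 hpf replicate 1. For control development it gave 2761 to 5744, 94 to 777 and 639 to 2465, with 0 to 4 of the 10 genes at the last step, and 0 to 1 gene under 0.05 in the exact test.

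Log2 differences near 0 changed sign, and none of those was called. For EN2 ENSDARG00000038868 at 14 hpf the value was -0.01 with median-of-ratios factors, the block or DESeq2, -0.02 with genes only, and 0.00 with no filter or the 4 libraries, and for 18 over 14 hpf in controls it was 0.03 with median-of-ratios factors or DESeq2. PAX2 ENSDARG00000028148 gave -0.02 with no filter for 14 over 11 hpf, PAX2 ENSDARG00000032578 gave -0.02 with the block at 14 hpf, her5 averaged -0.08 over the 3 later times, and the forebrain ratio of EN2 ENSDARG00000026599 was -0.04 at a prior count of 0.5.

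Omitting single libraries gave these ranges of knockdown difference. EN2 ENSDARG00000038868 ran from -1.62 to 0.14 at 11 hpf, -0.32 to 0.26 at 14 hpf and -0.48 to 0.10 on average, and EN2 ENSDARG00000026599 from -0.03 to 0.26 at 18 hpf. PAX2 ENSDARG00000028148 ran from -1.19 to 1.58 at 8 hpf, -0.14 to 0.05 at 18 hpf and -0.40 to 0.29 on average, and PAX2 ENSDARG00000032578 from -0.32 to 2.48 at 11 hpf and -0.90 to 0.63 at 14 hpf. WNT1 ran from -1.13 to 4.71 at 8 hpf, the last against a single control with 0 counts and so no bound, -0.73 to 0.60 at 11 hpf and -0.06 to 1.29 at 14 hpf, and on average from 0.09 to 1.55, the last without control 8 hpf replicate 1. GBX1 ran from -0.03 to 0.47, -0.04 to 0.52 and -0.34 to 0.32 at 11, 14 and 18 hpf and -0.04 to 0.12 on average, and GBX2 from -0.22 to 0.71, -0.10 to 0.35 and -0.30 to 0.21 at 8, 14 and 18 hpf. The range of her5 was -0.43 to 0.06, -0.48 to 0.22 and -0.19 to 0.38 at 11, 14 and 18 hpf and -0.04 to 0.13 on average. At 11 hpf EGR2 ran from -0.52 to 0.35, and at 18 hpf en1b from -0.17 to 0.47. Forebrain ratios ran from -0.02 to 0.11 and -0.12 to 0.36 for the 2 EN2 genes and -0.09 to 0.56 for PAX2 ENSDARG00000028148. In controls, 14 over 11 hpf ran from -0.01 to 0.03 for that gene and -0.41 to 0.15 for GBX1, and 18 over 14 hpf from -0.19 to 0.18 for EN2 ENSDARG00000038868.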
